A study of Mus musculus with 20 samples.

Results

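The genes described here are those of the polyglutamine diseases other than SCA7, with their close paralogues. They are Atxn1, Atxn2, Atxn3, Tbp, Htt and Atn1, with the paralogues Atxn1l and Atxn2l. They were listed by name, with earlier results of these data known, and they make up 8 of the 21897 protein-coding genes in the count table. Each of the 8 was found in the table, and each had enough reads to be tested in every comparison. In build GRCm38 the paralogous pairs lie on different chromosomes, Atxn1 (ENSMUSG00000046876, chr13:45549755-45965008, - strand) with Atxn1l (ENSMUSG00000069895, chr8:109726451-109737739, - strand), and Atxn2 (ENSMUSG00000042605, chr5:121711337-121816493, + strand) with Atxn2l (ENSMUSG00000032637, chr7:126491708-126503437, - strand). The others are Atxn3 (ENSMUSG00000021189, chr12:101918901-101958246, - strand), Tbp (ENSMUSG00000014767, chr17:15499888-15528379, + strand), Htt (ENSMUSG00000029104, chr5:34761740-34912534, + strand) and Atn1 (ENSMUSG00000004263, chr6:124742544-124756524, - strand).

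RNA was sequenced from the cerebella of 20 C57BL/6J mice, with 1 cerebellum in each library, and reads were counted on genes. SCA7 mice carried the SCA7 140Q/5Q knock-in, with an expanded CAG repeat in 1 Atxn7 allele. AAV-shA4 is the AAV PHP.eB vector for an shRNA directed at CAG repeats, and AAV-shSCR is the same vector with a scrambled shRNA. The 9w set held 6 WT mice, of which 3 received AAV-shA4 and 3 stayed untreated. The 25w set held 5 SCA7 mice given AAV-shA4, a further 5 given AAV-shSCR and 4 untreated WT mice. According to the methods of the study, vectors were injected into the bloodstream of young mice and untreated mice received saline. The titles give 9w and 25w without saying from when the weeks are counted. The study's text counts the early set from injection and gives a somewhat different time for the late set, so 9w and 25w are used as names of the sets and not as ages. The vector reached most Purkinje cells (PCs) and few granule cells, which make up most cerebellar neurons, so a treated library also holds RNA of cells without vector. Reads of the mutant and the normal Atxn7 allele were counted together. No WT mouse analysed here received AAV-shSCR.

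Polyglutamine diseases are caused by CAG repeats that have expanded in the coding sequence of otherwise unrelated genes. The repeat is read as a stretch of glutamines, and the expanded protein misfolds and aggregates in neurons. ATXN1 and ATXN1L bind the transcriptional repressor CIC (SCA1), ATXN2 and ATXN2L bind RNA and stress-granule proteins (SCA2), and ATXN3 is a deubiquitinase (SCA3). TBP binds the TATA box as part of the general transcription factor TFIID (SCA17), huntingtin is a scaffold of vesicle transport and autophagy (Huntington disease), and atrophin-1 is a transcriptional co-repressor (DRPLA). Whether an shRNA directed at CAG repeats can pair with the CAG runs in transcripts of these genes was not tested. The longest run in any mouse transcript ranged from 2 CAG in a row in Atxn1 and Atxn2l to 6 in Atxn2. The comparisons below give what was measured for each transcript in treated and untreated cerebella. According to the paper, mismatches in such reagents are meant to weaken or block cleavage of the target RNA. Only RNA was counted here, so lowering of these proteins without a change in RNA was not tested.

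The CAG runs of the mouse reference are shown first, because they are the sequence that these genes share with the target in Atxn7. In each line the capitals mark the longest in-frame run of glutamine codons (CAG or CAA) in the transcript with the longest coding sequence, with 15 bases on either side, read 5′ to 3′ from GENCODE M21 transcripts (build GRCm38).
Atxn7: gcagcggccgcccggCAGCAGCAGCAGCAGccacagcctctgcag
Tbp: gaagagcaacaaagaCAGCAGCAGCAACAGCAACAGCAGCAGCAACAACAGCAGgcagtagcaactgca
Htt: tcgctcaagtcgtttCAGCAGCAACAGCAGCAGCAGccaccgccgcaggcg
Atxn3: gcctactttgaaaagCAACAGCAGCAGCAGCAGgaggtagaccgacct
Atxn1: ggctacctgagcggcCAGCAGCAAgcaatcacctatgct

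Tbp had the longest run, 13 glutamine codons of which 9 are CAG and 4 are CAA, in exon 3 of 8 (chr17:15504391-15504429, + strand). The CAA codons break it up, so that it holds at most 3 CAG in a row. Htt had 7 glutamine codons with at most 4 CAG in a row in exon 1 of 67 (chr5:34761958-34761978, + strand). Atxn3 had 6 with 5 CAG in a row in exon 10 of 11 (chr12:101926563-101926580, - strand). Atxn1, Atxn2 and Atn1 had 3 glutamine codons each, and Atxn1l and Atxn2l had 2 each. The target itself, mouse Atxn7, had 5 CAG in a row in exon 2 of 13 (chr14:14013156-14013170, + strand). The expanded allele is not in this reference.

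The longest uninterrupted CAG run among the 8 genes was not a glutamine run. It lies in exon 15 of 25 of Atxn2 (chr5:121795060-121795077, + strand), where the reading frame takes the repeat as the serine codon AGC. The capitals mark its 6 CAG in a row.
Atxn2: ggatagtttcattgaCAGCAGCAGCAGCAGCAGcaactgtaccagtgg
Runs of 6 or more CAG were present in some transcript of 0.955% of protein-coding genes, and runs of 5 or more in 1.61%. An in-frame run of 13 or more glutamine codons was found in 0.243% of the genes with a coding sequence, of 7 or more in 0.688%, and of 6 or more in 0.862%. Thus Atxn2 and Atxn3 reached the CAG length of the normal Atxn7 allele, and the other 6 genes stayed under it.

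The 8 genes were moderately expressed in the cerebellum. Levels are given as CPM, the reads of a gene per 1000000 reads of its library, after TMM normalization, which corrects for differences in composition. Over the 20 libraries Htt received 7832 to 13737 reads, Atxn2 3795 to 6932, Tbp 1653 to 2745 and Atxn1 1514 to 2672. Atn1 received the fewest, 701 to 1386. CPM does not correct for gene length, so levels of different genes were compared per kilobase only. Per kilobase of median transcript length the order was Atxn2 (151.0 ± 5.30 CPM per kilobase, SD, n = 20), Htt (85.1 ± 6.81), Atxn2l (80.0 ± 5.95), Tbp (66.0 ± 2.96), Atn1 (32.5 ± 2.49), Atxn3 (25.8 ± 1.52), Atxn1l (17.2 ± 0.852) and Atxn1 (14.1 ± 1.37). The ranges of Htt and Atxn2l overlapped, as did those of Atxn2l and Tbp and those of Atxn1l and Atxn1. These SDs include all groups.

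This order depended on the length used. Per kilobase of the union of all exons, Atxn2l came first (55.2 ± 4.11 CPM per kilobase), followed by Htt (10.2 ± 0.814), Atxn1l (9.03 ± 0.447), Atxn2 (7.92 ± 0.278), Atn1 (5.43 ± 0.416), Atxn3 (4.76 ± 0.280), Tbp (3.85 ± 0.172) and Atxn1 (3.81 ± 0.371). Atxn2 has 20 annotated transcripts with a median length of 823 bases in an exon union of 15689 bases, and Tbp has 12 with a median of 791.5 bases in 13576 bases. On this scale the ranges of Htt and Atxn1l, Atxn1l and Atxn2, Atn1 and Atxn3, and Tbp and Atxn1 overlapped, and Tbp was below Atxn1 in both groups of 9w and above it in the 3 groups of 25w. In the mean of all libraries Atxn1l lay above its paralogue Atxn1 on both scales, with overlapping ranges per kilobase of median transcript length. The place of Atxn2 against its paralogue Atxn2l turned around between the scales.

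Some counts could hold reads of a neighbour, or lack reads that fit a neighbour as well. Atn1 shares 84.2% of its exon bases with the read-through gene Gm45234 on the same strand, which received 0 to 6 reads. Reads that fit both may not have been counted, so the count of Atn1 may be too low. Its place in both orders above is therefore uncertain. Tbp shares 19.0% of its exon bases with Pdcd2 on the opposite strand, Atxn1 2.70% with Gmpr and Atxn2 0.631% with Sh2b3. Whether reads were counted by strand is not given in the sources used here.

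**Figure D1:**
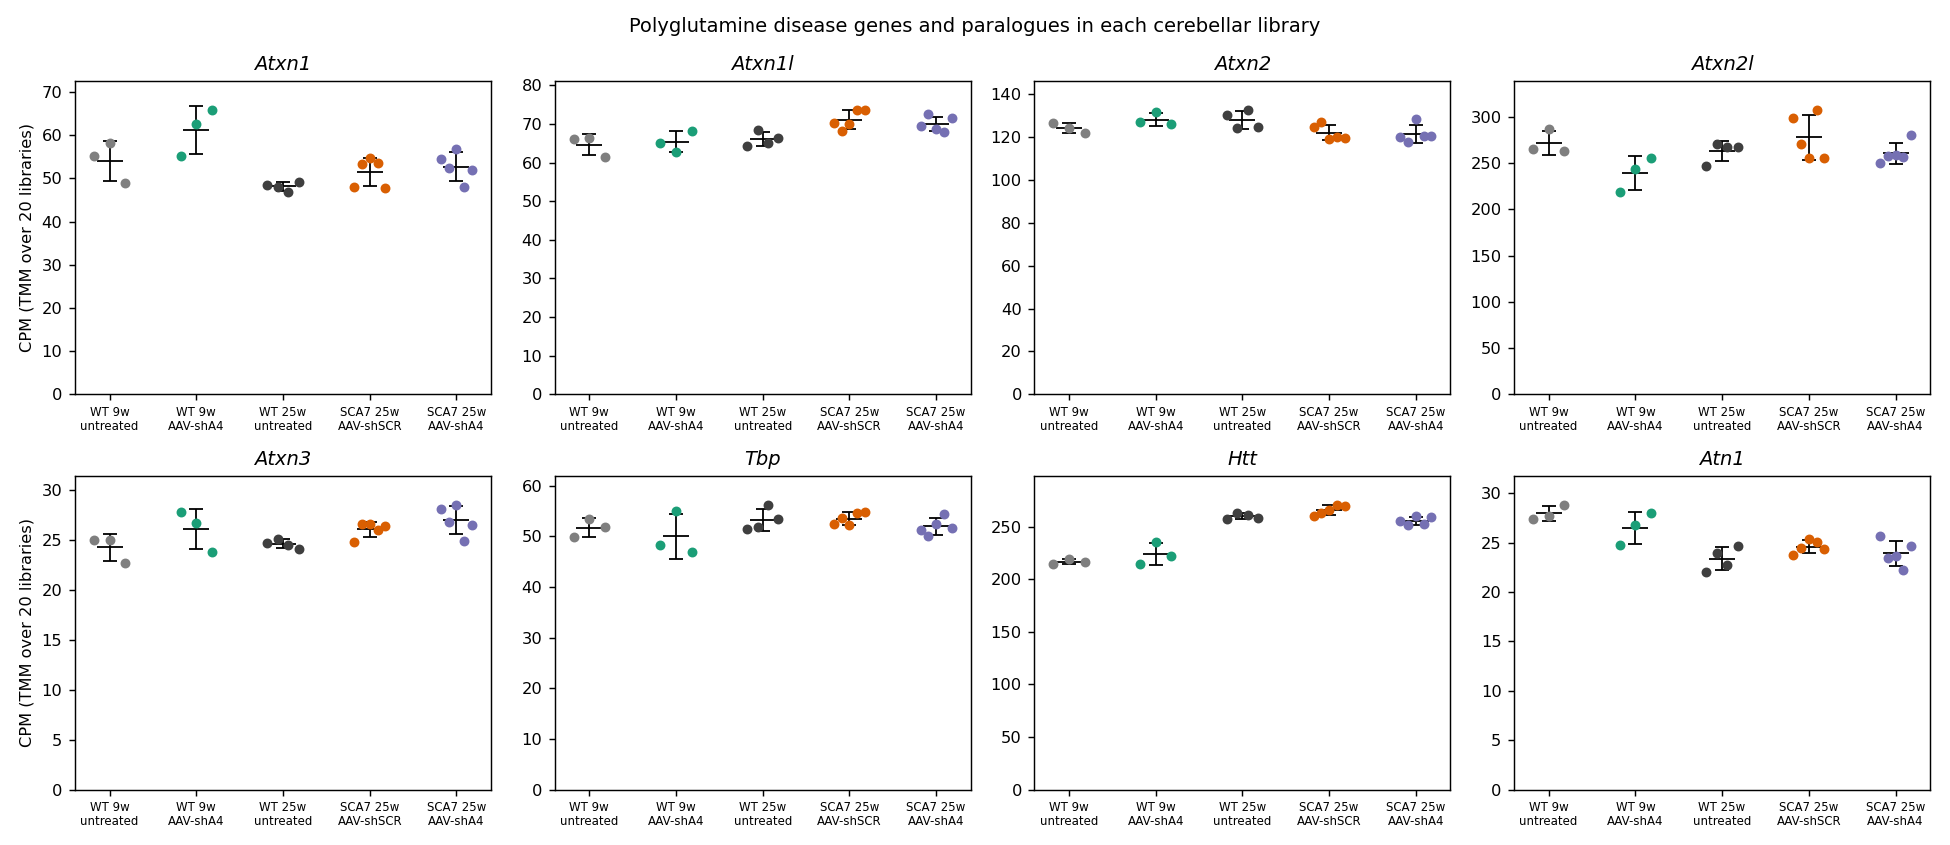
Level of each of the 8 genes in each library, on a linear axis from 0, as CPM with TMM normalization over all 20 libraries. Each point is a mouse, and the bars show the mean and SD of the 5 groups. Htt lies between 214.4 and 235.5 CPM in the 6 libraries at 9w and between 251.6 and 270.9 CPM in the 14 libraries at 25w, whereas groups of the same set lie close together.

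The libraries were deep, and several tissue markers differed between libraries or groups. Between 31465586 and 54570503 reads were counted per library, and in the 9w set the depths of the groups did not overlap, with 36245752 to 39208298 reads in AAV-shA4-treated and 47455917 to 49212593 in untreated WT mice. All 10 PC markers and all 7 granule cell markers were detected in the libraries, as the cerebellar label requires. In SCA7 mice all 10 PC markers had fallen against WT mice in either treatment group, and the summed level of PC markers was 7189 to 8521 CPM in the 10 SCA7 mice against 10327 to 11690 CPM in WT mice of 25w. In bulk cerebellum, fewer cells of a type and less RNA per cell cannot be told apart. Summed oligodendrocyte markers were 4073 to 5160 CPM in SCA7 mice and 5565 to 6583 CPM in WT mice of 25w. Markers of the choroid plexus, which is attached to the cerebellum at dissection, ranged from 36.1 CPM in AAV-shA4-treated SCA7 replicate 2 to 3847 CPM in a WT mouse. Summed blood markers ranged from 2.18 to 27.3 CPM, with both ends in AAV-shSCR-treated SCA7 mice. AAV-shA4-treated WT replicate 3 had 118.3 CPM of MHC class II genes, against 13.3 to 23.4 CPM in the other 9w libraries.

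Atxn7, the targeted gene, was examined first. In WT mice at 9w its level was 37.5, 40.4 and 40.3 CPM with AAV-shA4 and 38.0, 42.3 and 37.0 CPM without. At 25w it was 44.7, 48.0, 50.1, 47.9 and 52.1 CPM in AAV-shA4-treated SCA7 mice, 46.0, 53.8, 48.5, 50.9 and 50.4 CPM in AAV-shSCR-treated SCA7 mice and 46.0, 50.6, 49.7 and 49.1 CPM in WT mice. The groups of the same set overlapped in each comparison, and the difference between the SCA7 groups was -2.80% (95% interval -9.16% to 4.01%, adjusted p = 0.842, edgeR quasi-likelihood test). Bulk Atxn7 RNA therefore does not tell the treatment groups apart, and the labels have no check in this gene. By western blot, the paper reports less mutant ATXN7 protein in SCA7 cerebella with AAV-shA4 than with AAV-shSCR. Those blots were of other mice, taken earlier after injection than the SCA7 mice sequenced here. Whether the protein of a gene changed where its RNA did not was not tested here.

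The first comparison was AAV-shA4 against no treatment in WT mice at 9w. Untreated mice received no vector, so effects of the vector and of its shRNA cannot be told apart here. None of the 8 genes passed the edgeR test at an adjusted p under 0.05, and 2 had an unadjusted p under 0.05. Over all 14733 genes tested 0.0679% passed, and 0.0543% also changed by more than 1.3-fold. That share depended on the fit, since edgeR passed 10 genes, DESeq2 130 and edgeR without 1 library between 1 and 73, the last without AAV-shA4-treated replicate 3. DESeq2 passed none of the 8. The 95% intervals of the 8 genes lay between -20.05% (Atxn2l) and 27.1% (Atxn1), so that none reached a 1.3-fold change.

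Atxn2l, the RNA-binding paralogue of ataxin-2, had the smallest p of the 8. Its level was 215.1, 237.7 and 251.1 CPM in treated and 260.2, 281.4 and 258.7 CPM in untreated mice. All treated mice were thus below all untreated mice, with a log2 fold change of -0.19 (SE 0.063, adjusted p = 0.331). The exact permutation test gave p = 0.10, the smallest that 3 against 3 mice allow. Groups did not overlap for 1 of the 8 genes and for 16% of all genes tested. Depth did not overlap between these groups either, and summed markers did not overlap for oligodendrocytes (6978 to 7279 in treated against 7586 to 7888 CPM in untreated mice), astrocytes and Bergmann glia (2791 to 2915 against 2584 to 2693 CPM), motile cilia (24.9 to 26.8 against 15.5 to 23.6 CPM) and MHC class II genes (23.4 to 118.3 against 13.3 to 19.0 CPM). Their part in the result was not tested.

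Atxn1 pointed the other way, with 54.1, 61.1 and 64.8 CPM in treated and 54.1, 57.1 and 48.2 CPM in untreated mice. The groups overlapped, and the log2 fold change was 0.18 (SE 0.077, adjusted p = 0.428). Its paralogue Atxn1l differed by 1.02% (95% interval -6.97% to 9.70%), and Atxn2 by 3.04% (-3.87% to 10.4%).

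The 3 genes with the longest glutamine runs did not differ beyond the spread between mice either. Tbp was at 47.3, 53.8 and 46.0 CPM with AAV-shA4 and at 48.8, 52.4 and 51.0 CPM without (adjusted p = 0.803). Htt was at 210.7, 230.0 and 218.1 CPM with and at 210.3, 215.3 and 213.1 CPM without (adjusted p = 0.757). Atxn3 was at 27.3, 26.1 and 23.4 CPM with and at 24.6, 24.6 and 22.3 CPM without (adjusted p = 0.641). The ranges of treated and untreated mice overlapped in each of these genes. For Atn1 the levels were 24.3, 26.1 and 27.5 CPM with and 26.8, 27.2 and 28.4 CPM without, and the change was -5.42% (95% interval -14.7% to 4.85%). For Atxn2, whose transcript holds the longest pure CAG run, treated mice had 124.4, 128.3 and 123.8 CPM and untreated mice 124.0, 121.8 and 119.6 CPM.

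The next comparisons ask how the 8 genes stand in SCA7 mice at 25w, with either vector, against WT mice. Both use the same 4 WT mice, so they are not independent. All SCA7 mice received a vector and these WT mice did not, so genotype and vector cannot be told apart in either comparison. With AAV-shSCR, 1 of the 8 genes (Atxn1l) passed, against 15.5% of the 14862 genes tested, and with AAV-shA4 1 passed (Atxn3), against 13.6%. None of the 8 changed by more than 1.3-fold, whereas 4.02% and 3.45% of all genes passed with a change of that size. No gene of the 8 had groups without overlap, against 16.8% and 13.4% of all genes. As medians of the log2 fold change the 8 genes stood at 0.08 under AAV-shSCR and at 0.01 under AAV-shA4, beside 0.00 and 0.01 for all genes.

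**Figure D2:**
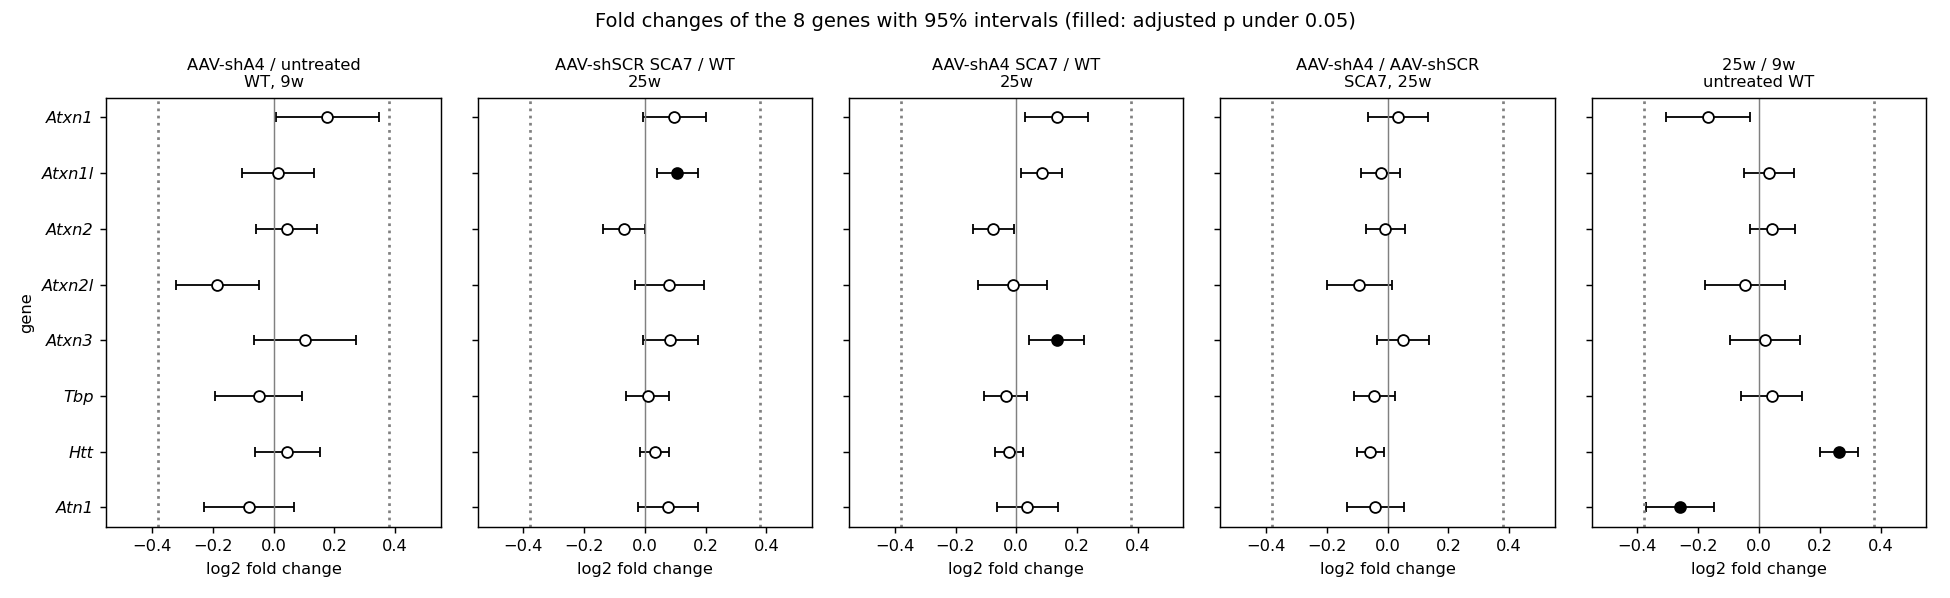
Fold change of each of the 8 genes in the 5 comparisons, on a log2 axis, with its 95% interval. Filled points have an adjusted p under 0.05 over all genes tested, and dotted lines mark a 1.3-fold change. The 4 filled points are Atxn1l with AAV-shSCR, Atxn3 with AAV-shA4, and Htt and Atn1 between untreated sets, and none of the estimates lies past the dotted lines.

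Atxn1l, which with ataxin-1 stabilizes the repressor CIC, rose by 7.65% in AAV-shSCR-treated SCA7 mice. Its levels were 70.8, 68.7, 70.5, 74.2 and 74.3 CPM, against 64.9, 69.2, 65.7 and 66.7 CPM in WT mice. All but a single SCA7 mouse lay above every WT mouse (log2 fold change 0.11, SE 0.032, adjusted p = 0.0334, edgeR, exact permutation p = 0.0317). With AAV-shA4 the levels were 69.8, 73.1, 69.4, 68.5 and 72.0 CPM, 5.95% above WT (95% interval 1.07% to 11.1%, adjusted p = 0.102). The call with AAV-shSCR was lost when AAV-shSCR replicate 4 or 5, or WT replicate 1, 3 or 4, was left out, with adjusted p between 0.0681 and 0.102. In both SCA7 groups all 10 PC markers and 3 of 6 oligodendrocyte markers passed the test downwards. The 6 markers of astrocytes and Bergmann glia were all lower in both groups. Of these, 2 passed with AAV-shSCR (Aqp4 and Hopx) and 3 with AAV-shA4 (these and Gfap). Their summed levels were 2260 to 2437 and 2206 to 2641 CPM, against 2507 to 2669 CPM in WT mice. The part of these markers in the changes of Atxn1l and Atxn3 was not tested.

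Atxn3, the deubiquitinase gene, rose by 9.69% in AAV-shA4-treated SCA7 mice. Its levels were 28.3, 27.0, 28.8, 25.2 and 26.8 CPM, against 24.97, 25.4, 24.8 and 24.2 CPM in WT mice. Only the lowest SCA7 mouse fell into the WT range (log2 fold change 0.13, SE 0.043, adjusted p = 0.0485, edgeR, exact permutation p = 0.0317). With AAV-shSCR the levels were 25.02, 26.8, 26.8, 26.2 and 26.6 CPM, 5.95% above WT (95% interval -0.509% to 12.8%, adjusted p = 0.212). The call with AAV-shA4 stands at the threshold. It was lost when any WT mouse or AAV-shA4 replicate 1, 2, 3 or 5 was left out (adjusted p 0.0662 to 0.130), and also when only the groups compared were fitted (adjusted p = 0.0936).

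Atxn1 leaned the same way as its paralogue. AAV-shA4-treated SCA7 mice had 54.9, 52.9, 57.4, 48.5 and 52.3 CPM, AAV-shSCR-treated SCA7 mice 48.5, 53.7, 55.2, 53.9 and 48.3 CPM and WT mice 48.9, 48.5, 47.2 and 49.6 CPM. WT mice were close together, and both SCA7 groups spread upwards from their level. The difference from WT was 9.62% with AAV-shA4 (adjusted p = 0.0891) and 6.96% with AAV-shSCR (adjusted p = 0.207), neither of which passed. Without AAV-shA4 replicate 4, the lowest of its group, Atxn1 passed (log2 fold change 0.16, adjusted p = 0.0320).

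Atxn2 was the only gene of the 8 below WT in both comparisons by more than 4%. WT mice had 131.0, 125.5, 133.9 and 125.5 CPM, AAV-shSCR-treated mice 125.7, 127.8, 120.1, 120.9 and 120.5 CPM and AAV-shA4-treated mice 120.7, 118.6, 129.7, 121.6 and 121.4 CPM. The difference was -4.66% with AAV-shSCR (adjusted p = 0.165) and -5.13% with AAV-shA4 (adjusted p = 0.135). Without AAV-shA4 replicate 3, the mouse at 129.7 CPM, Atxn2 passed in the latter (log2 fold change -0.10, adjusted p = 0.0427).

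The remaining genes differed from WT by at most 5.72%. Atxn2l varied most between AAV-shSCR-treated mice, with 302.0, 273.2, 258.6, 310.6 and 258.0 CPM, against 248.7 to 273.8 CPM in WT and 251.9 to 282.6 CPM in AAV-shA4-treated mice. Tbp was at 52.6 to 55.2 CPM with AAV-shSCR, 50.5 to 54.9 CPM with AAV-shA4 and 51.9 to 56.7 CPM in WT mice. Atn1 was at 24.0 to 25.6, 22.5 to 25.8 and 22.2 to 24.9 CPM in the same order.

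The fourth comparison, AAV-shA4 against AAV-shSCR in SCA7 mice at 25w, asks for an effect of the shRNA itself on RNA levels. None of the 8 genes passed the test and 1 had an unadjusted p under 0.05, with 0% of all 14862 genes passing with or without the 1.3-fold limit. Of all genes, 1222 had an unadjusted p under 0.05, and DESeq2 passed 23 genes, none of the 8 among them. The 95% intervals of the 8 genes lay between -12.9% (Atxn2l) and 9.86% (Atxn3), and larger changes were outside them.

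Htt, the huntingtin gene, was the gene of the 8 with the smallest p. AAV-shA4-treated mice had 256.8, 253.9, 262.4, 254.7 and 261.4 CPM and AAV-shSCR-treated mice 262.9, 265.1, 268.1, 273.1 and 271.6 CPM. Every AAV-shA4-treated mouse lay below every AAV-shSCR-treated mouse. The ranges were 253.9 to 262.4 and 262.9 to 273.1 CPM, so the nearest mice were almost level. The difference was -3.84% (95% interval -6.77% to -0.829%, log2 fold change -0.06, SE 0.021), with an unadjusted p of 0.0160 and an adjusted p of 0.532 in edgeR. The exact permutation test gave p = 0.00794 before any adjustment, the smallest that 5 against 5 mice allow. Groups did not overlap for 1 of the 8 genes, against 1.51% of all genes. WT mice, with 259.7, 265.5, 263.8 and 260.3 CPM, lay between the SCA7 groups and overlapped both, so that Htt passed in neither comparison with WT (adjusted p = 0.371 and 0.534).

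The other genes with long runs overlapped between the vectors. For Tbp the difference was -2.98% (95% interval -7.47% to 1.73%, adjusted p = 0.745), and for Atxn3 it was 3.53% (-2.43% to 9.86%, adjusted p = 0.770). For Atxn2 it was -0.496% (-4.82% to 4.02%, adjusted p = 0.968). For Atxn2l it was -6.21% (-12.9% to 0.966%, adjusted p = 0.640), and the high AAV-shSCR-treated mice are those at 302.0 and 310.6 CPM. Atxn1, Atxn1l and Atn1 differed by 2.48%, -1.58% and -2.75%, with adjusted p of 0.839 to 0.872. Cacna1a, the calcium channel gene of SCA6, differed by -3.57% (adjusted p = 0.768).

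The last comparison sets untreated WT mice of 25w against untreated WT mice of 9w. It is a comparison of time points and of different sets of mice, which cannot be told apart. Whether the sets were handled together is not given in the titles. Here 2 of the 8 genes passed, Htt upwards and Atn1 downwards, against 24.2% of the 15095 genes tested. Neither changed by more than 1.3-fold, a size that 5.27% of all genes passed with. Groups did not overlap for these 2 genes, and for 33.4% of all genes. CPM in this comparison was scaled over all 20 libraries.

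Htt was 19.98% higher in the later set, rising from 214.4, 219.4 and 216.8 CPM at 9w to 257.6, 263.0, 261.5 and 258.6 CPM at 25w. The mice within each set were close together and the sets lay far apart (log2 fold change 0.26, SE 0.030, 95% interval 14.95% to 25.2%, adjusted p = 4.02e-06, edgeR). By p, Htt was gene 66 of the 15095. The exact permutation test gave p = 0.0571, the smallest that 4 against 3 mice allow. The treated groups of the same sets lay on the same levels, at 214.6, 235.5 and 221.9 CPM in AAV-shA4-treated WT mice of 9w and at 251.6 to 270.9 CPM in the 10 SCA7 mice of 25w.

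Atn1, which encodes the co-repressor atrophin-1, fell by 16.5%, from 27.4, 27.7 and 28.8 CPM at 9w to 22.1, 24.0, 22.8 and 24.7 CPM at 25w. Again no mouse of either set lay in the range of the other (log2 fold change -0.26, SE 0.053, 95% interval -22.7% to -9.85%, adjusted p = 0.00139, edgeR). Both calls were kept under every alternative and without any single library, the log2 fold change of Htt lying between 0.25 and 0.27 and that of Atn1 between -0.29 and -0.23 when a library was left out. The uncertainty about reads shared with Gm45234 applies to Atn1 in both sets.

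Atxn1 was 11.0% lower at 25w (adjusted p = 0.0708), with 48.5, 48.0, 46.8 and 49.3 CPM against 55.1, 58.1 and 49.1 CPM at 9w. Its groups overlapped in a single mouse of 9w, replicate 3, and without that mouse the gene passed (log2 fold change -0.23, adjusted p = 0.0259). Atxn1l, Atxn2, Atxn2l, Atxn3 and Tbp differed between the sets by -3.16% to 3.13% (adjusted p 0.384 to 0.822). Among polyglutamine genes outside the 8, Atxn7 rose from 38.7, 43.1 and 37.6 to 45.7, 50.2, 49.3 and 48.8 CPM (21.7%, adjusted p = 0.00149). Cacna1a, a calcium channel gene, differed by -1.92% (95% interval -9.00% to 5.72%).

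Markers moved between the sets as well. All 6 oligodendrocyte markers passed the test downwards, with a median log2 fold change of -0.42. Of 7 granule cell markers 4 passed downwards and 6 were lower. Of 6 microglial markers 3 passed upwards and all 6 were higher. Of 10 PC markers 1 passed upwards (Itpr1), with 5 higher and 5 lower. The part of these markers in the changes of Htt and Atn1 was not tested.

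**Figure D3:**
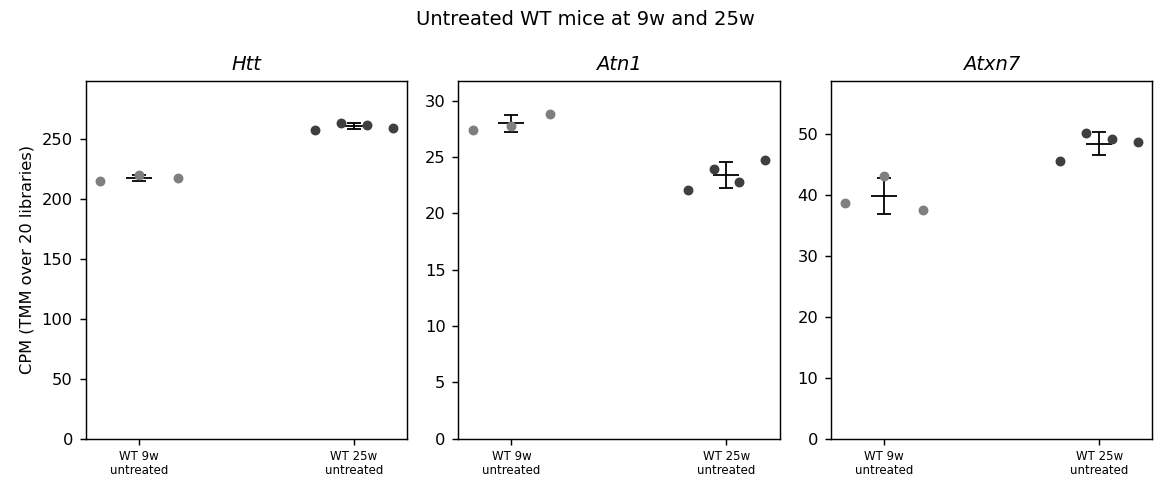
Levels of Htt, Atn1 and Atxn7 in untreated WT mice of 9w (n = 3) and 25w (n = 4), as CPM with TMM normalization over 20 libraries on linear axes from 0. Each point is a mouse, and the bars show the mean and SD. Htt and Atxn7 are higher and Atn1 is lower at 25w, and the sets do not overlap in any of the 3 genes.

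The proteins of the 8 genes act in complexes, and 50 further genes, called partners below, were followed in 7 lists. The lists cover partners of ATXN1 and ATXN1L, of ATXN2 and ATXN2L, of ATXN3, of TBP, of HTT and of ATN1. A further list holds genes of mismatch repair and repeat length, which are counted with the partners. In the 9w comparison none of the 49 partners tested passed the edgeR test (2 at an unadjusted p under 0.05), and in that of AAV-shA4 with AAV-shSCR none of the 50 (5 at an unadjusted p under 0.05). DESeq2 was also fitted over these genes, and how the partners stood in it is not given here. In AAV-shSCR-treated SCA7 mice 3 rose and 5 fell against WT, and in AAV-shA4-treated SCA7 mice 2 rose and 6 fell, so that 8 of 50 passed in either comparison, near the 15.5% and 13.6% of all genes. Between the untreated sets 8 rose and 8 fell, 16 of 50 beside 24.2% of all genes. Nothing particular to the partners is read from these counts or from those of the single lists. A single partner in each of these 3 comparisons changed by more than 1.3-fold, and in both SCA7 comparisons it was Baiap2.

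Baiap2, whose product IRSp53 binds atrophin-1 and shapes dendritic spines, stood at 162.6, 164.7, 168.1, 170.3 and 180.1 CPM in AAV-shSCR-treated SCA7 mice, in rising order. With AAV-shA4 all 5 mice lay between 166.3 and 167.3 CPM, and WT mice had 211.9, 229.9, 219.2 and 222.5 CPM. All 10 SCA7 mice lay below all WT mice, with a log2 fold change of -0.38 (SE 0.030, adjusted p = 1.98e-07) and -0.40 (SE 0.030, adjusted p = 1.32e-07). When a library was left out the log2 fold changes lay between -0.41 and -0.36 and between -0.42 and -0.38. PC markers fell with it in the same mice, and their part in this change was not tested. Atn1 itself was 5.42% and 2.52% above WT in the same groups, and passed in neither.

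Among the partners of ATXN1 and ATXN1L, Cic, the repressor that these proteins bind, fell in both SCA7 groups, from a mean of 356.2 CPM in WT mice to 314.8 CPM with AAV-shSCR (log2 fold change -0.18, adjusted p = 0.00103) and 311.4 CPM with AAV-shA4 (-0.19, adjusted p = 0.000539). Rbm17, a splicing factor, fell with AAV-shA4 (-0.17, adjusted p = 0.0115). The remaining 2 of the 4 genes of this list passed in neither comparison. These and the following partners were named after their values were seen.

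Of the 6 partners of ATXN2 and ATXN2L, Rbfox1, a neuronal splicing factor, fell with AAV-shSCR (log2 fold change -0.20, adjusted p = 0.000835) and with AAV-shA4 (-0.19, adjusted p = 0.00161), and the others passed in neither. Of the 6 partners of ATXN3, the ubiquitin ligase gene Stub1 fell with AAV-shA4 (-0.10, adjusted p = 0.0268). Of the 7 partners of HTT, Pacsin1, an endocytosis gene, fell in both (-0.09 and -0.13, adjusted p = 0.0419 and 0.00521).

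Of the 13 genes of TFIID and other promoter partners of TBP, Gtf2a1, a subunit of TFIIA, rose in both SCA7 groups (log2 fold change 0.21 and 0.22, adjusted p = 0.00224 and 0.00169). Taf2 and the TBP-like gene Tbpl1 rose with AAV-shSCR (0.13 and 0.11). None of the 13 passed downwards, though 3 were lower with AAV-shSCR and 5 with AAV-shA4. Of the 9 genes of mismatch repair and repeat length, Lig1, a DNA ligase gene, rose with AAV-shA4 (0.19, adjusted p = 0.0293). No other gene of that list passed in either SCA7 comparison.

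In the comparisons in which no partner passed, the genes with the smallest p were the following. At 9w they were Hip1, a huntingtin-binding endocytic gene (log2 fold change -0.19, adjusted p = 0.265), and Brf1, the TBP-associated factor of RNA polymerase III (-0.13, adjusted p = 0.407). Hip1 was at 93.3, 92.6 and 104.1 CPM with AAV-shA4 and at 111.4, 110.5 and 109.5 CPM without. Between the SCA7 groups they were Taf9, at only 0.112 to 0.614 CPM in these mice (adjusted p = 0.483), and the ubiquitin ligase gene Wwp1, at 80.4 to 86.4 CPM with AAV-shA4 and 77.3 to 80.8 CPM with AAV-shSCR (log2 fold change 0.06, adjusted p = 0.567). Against WT mice, at 86.0 to 87.7 CPM, Wwp1 fell with AAV-shSCR (-0.13, adjusted p = 0.00194) and did not pass with AAV-shA4 (-0.07, adjusted p = 0.0672).

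Between the sets Sh3gl3, an endophilin gene whose product binds ataxin-2, had the largest change of the 50 partners and fell from 9.44, 10.7 and 8.70 to 7.35, 5.20, 5.36 and 5.78 CPM (log2 fold change -0.70, SE 0.138, adjusted p = 0.00105). The WT mouse at 7.35 CPM is the highest of its set and still below every mouse of 9w. Of the 5 partners of ATN1, Rere, the atrophin-2 gene, Itch and Wwp1 rose (log2 fold change 0.14, 0.13 and 0.19), while Atn1 fell. Of the 9 genes of mismatch repair and repeat length, Fan1, Mlh3 and Pms1 rose (0.26, 0.21 and 0.26). None of the 9 passed downwards, though 2 were lower. Taf1 rose, and Gtf2a1 and Tbpl1 fell (0.24, -0.23 and -0.12). Htt rose while of its 7 partners only Pacsin3 passed, and it fell (-0.19).

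The spread of the 8 genes between mice of a group was mostly below that of other genes. At 25w the median SD of their log2 CPM was 0.043 in WT, 0.042 in AAV-shSCR-treated and 0.056 in AAV-shA4-treated mice, beside 0.078, 0.080 and 0.091 for all genes tested. At 9w it was 0.056 in untreated and 0.102 in AAV-shA4-treated mice, beside 0.079 and 0.096. Htt had the smallest SD of the 8 in 4 of the 5 groups, between 0.015 and 0.023. Well expressed genes vary less, and this was not adjusted for level.

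Over the 14 libraries of 25w, 2 of the 28 pairs of the 8 genes had a Pearson correlation with an adjusted p under 0.05. Atxn1 and Atxn3 varied together (r = 0.84, permutation p = 0.000300, adjusted p = 0.00840), with r = 0.78 without the 2 mice farthest from the median of Atxn1 and r = 0.80 in the 10 SCA7 mice alone. Spearman's rho was 0.73 (permutation p = 0.00431, adjusted p = 0.0603). Atxn1l and Atxn2 varied in opposite directions (r = -0.78, permutation p = 0.00102, adjusted p = 0.0143; rho = -0.75, permutation p = 0.00310, adjusted p = 0.0603), with r = -0.72 without the 2 farthest mice and -0.56 in the SCA7 mice. No pair passed by rho. Values of 1 mouse come from the same library, and the 3 groups differ in these genes as given above.

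**Figure D4:**
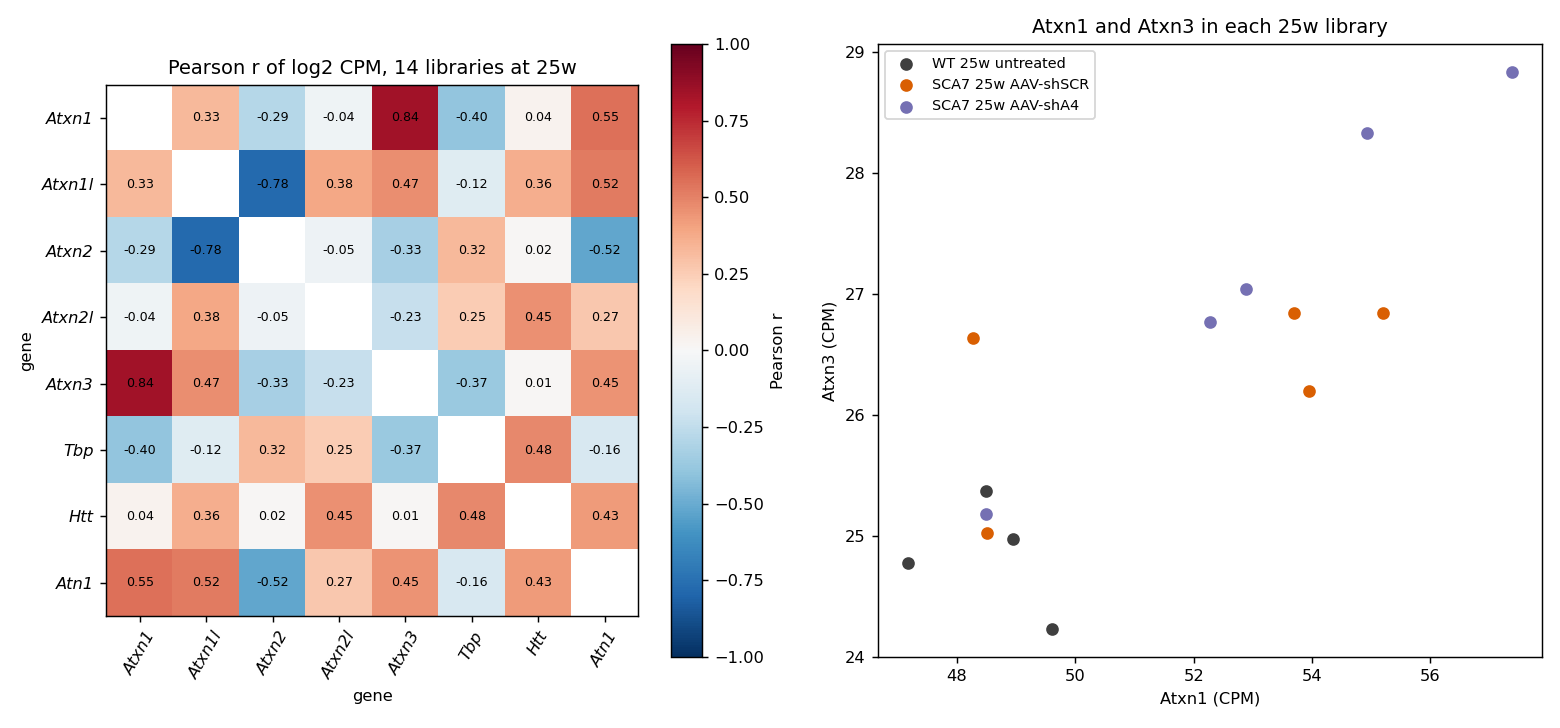
Left, Pearson r of log2 CPM for each pair of the 8 genes over the 14 libraries of 25w. Right, Atxn1 against Atxn3 in the same libraries in CPM, each point a mouse, with axes that do not start at 0. The strongest pairs are Atxn1 with Atxn3 (r = 0.84) and Atxn1l with Atxn2 (r = -0.78), and the WT mice lie at the low end for Atxn1 and Atxn3.

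Among all 14861 other protein-coding genes, those whose log2 CPM followed each of the 8 genes most closely over these 14 libraries are given as a description, since each is the highest of many. For Atxn1 they were 1810022K09Rik (r = 0.88), Gimap8 (0.87) and Slc35b4 (0.84), and for Atxn1l they were Xrn2 (0.93), Scrn1 (0.89) and Tmem209 (0.88). Atxn2 was followed by Usp31 (0.94), Efcab14 (0.89) and Wasl (0.88), and Atxn2l by Dot1l (0.93), Leng8 (0.92) and Gigyf1 (0.91). Slc35b4 also appeared for Atxn3 (0.88), after Snx2 and Rdx (0.88 each). For Tbp they were Hcfc2 (0.87), Galnt13 (0.84) and Arid3b (0.83), for Htt Rfx7 (0.88), Ankle2 (0.86) and Parp6 (0.86), and for Atn1 Hfe (0.88), Angpt2 (0.81) and Tulp3 (0.81).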

How the data were processed

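Cerebellar RNA of 20 mice was sequenced as single reads of stranded polyA libraries. The authors deposited raw counts, as whole reads for each gene and with no normalization. For these they trimmed reads with cutadapt 1.10, removed ribosomal reads with Bowtie2 2.2.8, mapped to mm10 with STAR 2.5.3a and counted with HTSeq 0.6.1p1 on Ensembl gene models. Reads that map to more than 1 gene are usually not counted by HTSeq, which lowers genes with close copies. The table was used as deposited. It has 55401 genes, of which 260 are not in the annotation used here (GENCODE M21, build GRCm38) and were left out. Groups were taken from the sample titles, and replicates are separate mice according to the methods.

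Protein-coding genes were tested with edgeR 4.0.16 in R 4.3.3, by its quasi-likelihood test on TMM-scaled libraries, after low genes were removed by filterByExpr (count of at least 10, total of at least 15). The 6 libraries of 9w and the 14 of 25w were fitted separately, and all 20 together for the comparison of untreated mice of 25w and 9w. The Benjamini-Hochberg adjustment ran over all genes tested. Exact permutation tests, two-sided, used log2 of CPM with 0.1 added, and intervals are 95% intervals of the fitted fold change. Depth was 31465586 to 54570503 reads per library. Mice of a group differed by more than counting noise (chi-squared per degree of freedom 4.72 to 22.7 over 32 pairs), so precision is set by the spread between mice. The biological coefficient of variation shared by all genes was 0.073 at 9w and 0.079 at 25w. The test was also run on counts simulated from its own fitted means and spread. That run shares the model of the test and does not bear on the single calls above.

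Alternatives were DESeq2 1.42.0, RLE normalization, other filters, all gene types, other sets of libraries, the replicate number as a block and leaving out each library. Named were the 8 genes, Atxn7 and Cacna1a, each partner past the test with a change above 1.3-fold or else the 2 with the smallest p in a comparison, and the 3 genes most correlated with each of the 8. Further partners were named after their values were seen. The genes and lists were chosen with earlier results of these data known. Sequences are those of GENCODE M21 transcripts. The sequence of the shRNA was not used here, and a few items, among them a gene of the naming rule and a partner, are not reported here.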

Additional observations from a re-analysis of the deposited data

Results flagged for a closer look

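Of 30 sets of 4 or 5 mice examined for the 8 genes, Atxn7 and Cacna1a, 1 held a mouse far from the others of its group by Dixon's test, and chance gives about 1 in 20. Atxn2 was at 129.7 CPM in AAV-shA4-treated SCA7 replicate 3, while the other mice of that group lay between 118.6 and 121.6 CPM. The gap took up 0.735 of the group's range, above the critical value of 0.71. The WT mice of 25w lay between 125.5 and 133.9 CPM, so this mouse fell into their range. Without it, Atxn2 passed the test against WT mice (log2 fold change -0.10, adjusted p = 0.0427). The same mouse had the highest level of Atxn1 (57.4 CPM) and of Atxn3 (28.8 CPM) in its group.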

How the results depend on the processing

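Of 280 values for the fold changes of the 8 genes under settings other than leaving out a library, 274 kept their direction and side of the threshold, 6 lost the call and none turned. The call of Atxn3 in AAV-shA4-treated SCA7 mice was lost, giving 0 genes past the test, with all gene types, without a filter on low counts, with the study's expression filter, with only the groups compared and with the replicate block (adjusted p 0.0568 to 0.0936). That of Atxn1l with AAV-shSCR was lost with the replicate block only (0 genes past the test, adjusted p = 0.0835). The replicate block changed no other call of the 8 genes. Same-numbered mice deviated together in 0 of 3 pairs at 9w (r -0.087 to 0.082) and in 3 of 13 pairs at 25w (r -0.219 to 0.476, limit 0.1). Mice of different numbers did so in 0 of 6 pairs at 9w and in 10 of 52 pairs at 25w (r -0.450 to 0.283). The replicate number was not taken as a pairing of mice, and the block is only an alternative setting.

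Leaving out each library gave 0 to 2 genes past the test for AAV-shA4-treated and 0 to 1 for AAV-shSCR-treated SCA7 mice against WT, 2 to 3 between the untreated sets and 0 in the other comparisons. Of 328 such values 300 were as before, 13 lost and 3 gained a call and 12 turned, all of them for differences near 0. As ranges of log2 fold changes these were Atxn1l at 9w (-0.019 to 0.048), Tbp with AAV-shSCR (-0.0079 to 0.036), Atxn2l with AAV-shA4 against WT (-0.043 to 0.0029), Atxn2 between vectors (-0.028 to 0.0079), and Atxn1l (-0.0031 to 0.051) and Atxn3 (-0.025 to 0.044) between the untreated sets. Outside the 8 genes they were Atxn7 at 9w (-0.028 to 0.074) and with AAV-shA4 against WT (-0.037 to 0.019), and Cacna1a between the untreated sets (-0.078 to 0.0076). Over all genes, DESeq2 passed 130 genes at 9w against 10 in edgeR, the replicate block 75, the fit of all 20 libraries 45, no filter 37 and all gene types 21, and leaving out a library 1 to 73. With 3 against 3 mice at 9w the intervals of the 8 genes differed in width, from -3.87% to 10.4% for Atxn2 to 0.458% to 27.1% for Atxn1.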
